A study of Homo sapiens with 4 samples.

Results

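LINC genes are genes for long intergenic noncoding RNAs, transcripts that lie between protein-coding genes and had no recognised long reading frame when they were named. They were measured after knockdown of UPF1 in H9, an established line of human embryonic stem cells. The members are the rows of the count table whose symbol starts with LINC and whose transcripts all carry noncoding RefSeq (NR_) identifiers, 172 of the 15942 genes in the table. One further LINC symbol, LINC00649, was left out because it also lists a coding transcript. The libraries fall into 2 groups. The knockdown group holds 2 libraries labelled siUpf1 (small interfering RNA against UPF1), called siUPF1 replicates 1 and 2. The reference group holds 2 libraries labelled Control siLuc, called control a and control b because both of their columns carry one name. All 4 come from H9 cells grown on Matrigel with E8 supplement, and no genetic modification is given for any of them. The treatment text shared by all libraries names siUPF3A rather than siUPF1 and describes an actinomycin D time course, with no time given for any library, so whether transcription was blocked before RNA was taken is not known. No label says that libraries of one group came from separate cultures. The p-values therefore reflect only how far these libraries differ, and that difference may be technical.

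UPF1 is the RNA helicase at the centre of nonsense-mediated mRNA decay (NMD), the pathway that removes transcripts on which a ribosome stops well before the end. In human cells the usual trigger is an exon junction, marked by a protein complex left behind by splicing, that lies far enough downstream of the stop codon. Noncoding RNAs can enter the pathway as well, because ribosomes load on short reading frames near their 5′ ends, and several host genes of small nucleolar RNAs are known substrates of this kind. UPF1 also acts in other decay pathways and in DNA replication.

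The siRNA target was lower in both knockdown libraries. UPF1 had 608 and 878 reads in siUPF1 replicates 1 and 2, against 1936 and 2053 reads in controls a and b, which leaves 32.8% of the control level after scaling (log2 fold change -1.60, SE 0.07, adjusted p = 1.06e-102, edgeR). Libraries held 10058515 and 11200973 counts in siUPF1 and 8887239 and 9937231 in siLuc. LINC members took 0.268% and 0.284% of the counts in siUPF1 libraries and 0.246% and 0.254% in controls. Of the 8 embryonic stem cell markers examined all were detected, and they summed to 1629 and 1500 CPM (reads per gene at a common depth, with TMM scaling) in siUPF1 against 1882 and 1750 CPM in siLuc, with 5 of the 8 called lower, or 2 with the coverage trend described below removed. Of the fibroblast or feeder markers, COL3A1 and DCN have no row, and the 4 tested summed to 565 and 543 CPM in siUPF1 and 546 and 531 CPM in siLuc, with PDGFRB called higher. Summed levels were 130 and 140 CPM in siUPF1 against 180 and 191 CPM in siLuc for 5 neural markers (2 called lower), 21.1 and 22.2 against 16.9 and 15.8 CPM for 3 trophoblast markers (1 called higher), and 9.20 and 7.22 against 9.96 and 8.98 CPM for 2 endoderm markers (1 called each way). Of 23 NMD factors, 6 were called higher and 2 lower, the target being one of these 2, and with the coverage trend removed 9 were higher and 4 lower. Among 11 tested noncoding RNAs known as NMD substrates, 3 were called higher and 2 lower, against 6 and 1 with the trend removed and 2 and 0 in DESeq2. The 3 were SNHG15 (log2 fold change 0.63, SE 0.10), EPB41L4A-AS1 (0.57, SE 0.11) and SNHG8 (0.35, SE 0.11), while GAS5, a snoRNA host gene often used as an NMD reporter, had 0.18 (SE 0.10) and did not pass the test (adjusted p = 0.180). With the trend removed GAS5 was called higher (0.29, adjusted p = 0.0196).

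LINC transcripts were more often higher than lower after UPF1 knockdown. Of the 172 members, 156 had enough reads to be tested and 16 did not. In the 16 untested members no library held more than 15 reads. A gene was called where its adjusted p in the edgeR fit over all 15557 genes tested was under 0.05. In siUPF1 libraries 38 members were called higher, which is 24.4% of those tested, beside 16.8% of all genes. By comparison, 8 members were called lower, 5.13% of those tested, beside 9.14% of all genes, and 110 did not pass. Calls were thus more one-sided among LINC members than among all genes, with 82.6% of the members' calls upward against 64.8% of all calls. In all 46 called members both siUPF1 libraries lay on the same side of both controls, which adds little to the calls because both rest on the same counts. Over all tested members, both siUPF1 libraries were above both controls in 66 and below both in 39, where 32.3% and 31.1% of all genes did so. The changes were mostly modest. The 38 higher members had a median log2 fold change of 0.69 (range 0.22 to 3.24), and 8 of them were at least 2-fold higher. The 8 lower ones had a median of -0.65 (range -1.44 to -0.22), and 1 was at least 2-fold lower.

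As a group the members shifted little. Their median log2 fold change was 0.10, against -0.01 over all genes tested, with 90 positive and 66 negative values. Set library against library, the members' median log2 ratio was 0.09 and 0.04 for siUPF1 replicate 1 over controls a and b, and 0.26 and 0.12 for replicate 2. Within groups the same median was 0.13 for siUPF1 replicate 2 over replicate 1 and 0.08 for control b over control a. The group median of 0.10 was thus below the difference between the siUPF1 libraries and slightly above that between the controls. It was also tied to read coverage: after the trend of fold change on reads per transcript base was removed from each library, the members' median was 0.00386. The median over all genes was then -0.0268. In that fit 31 members were called higher and 15 lower, so that 67.4% of the members' calls were upward against 51.2% of all calls. Most LINC genes lie at the sparse end of this scale. Their median level was 5.62 CPM against 46.0 CPM for all genes tested, 76 of the 156 were under 5 CPM, and the median SE of a log2 fold change was 0.22 against 0.09.

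**Figure D1:**
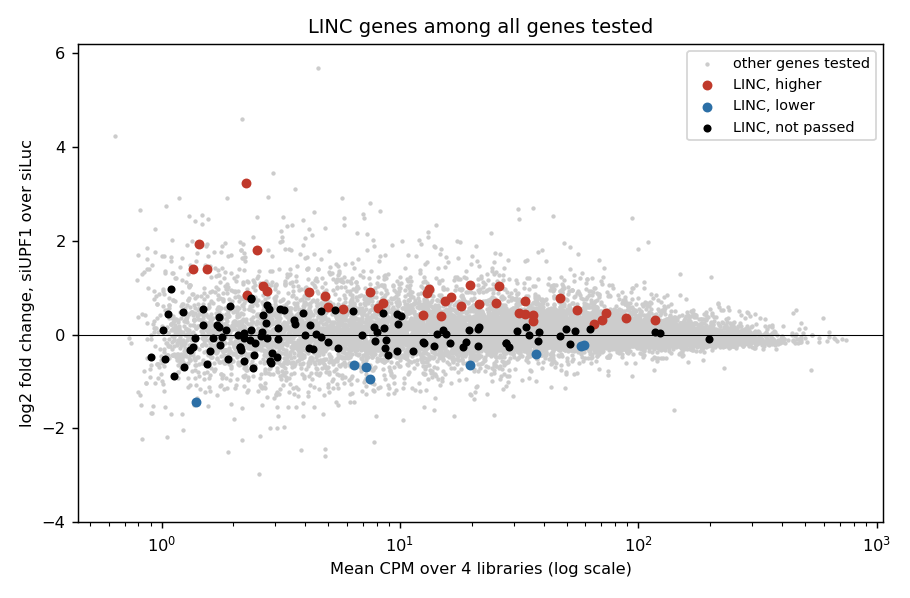
Each point is a gene tested, with its mean level over the 4 libraries in CPM on a log axis and its log2 fold change, siUPF1 over siLuc, on the vertical axis. LINC genes (red higher, blue lower, black not passed) lie mostly left of the bulk of the genes (grey), and 38 of the 46 called ones are above 0.

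The share of higher calls stood furthest above that of all genes among the better covered members. Of 37 members at 20 CPM or more, 15 were called higher (40.5%) and 3 lower (8.11%). All genes at that level had 16.6% called higher and 9.36% lower. Between 5 and 20 CPM, 12 of 43 were called higher (27.9%, beside 19.96% of all genes). Below 5 CPM the share was 14.5%, 11 of 76, close to the 13.5% of all genes there. Coding genes with 16.7% called higher and antisense noncoding genes with 11.5% were below the LINC share of 24.4%, and the other noncoding genes, which include many snoRNA hosts and pseudogenes, had 19.1%. No test was run on these shares.

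LINC01336 (NR_126375) had the largest rise. It had 40 and 47 reads in siUPF1 replicates 1 and 2, against 2 and 6 reads in controls a and b. This is a 9.42-fold difference (log2 fold change 3.24, SE 0.41, adjusted p = 1.81e-13), which passed in every alternative that tested it. In the RefSeq gene table of GRCh38.p14 its transcript is filed under GCNT4, a glycosyltransferase gene of O-glycan synthesis, so the reads may not belong to a separate noncoding gene. GCNT4 itself had 624 and 521 reads in siUPF1, against 68 and 91 in siLuc (log2 fold change 2.69, SE 0.13, adjusted p = 1.17e-94). Strand and the handling of reads that match several places are not given in the sources used here.

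The next rises came from sparsely expressed genes. Of these, DESeq2 did not call LINC01473 (adjusted p = 0.0754), LINC01176 (0.189), LINC01006 (0.242) or LINC01057 (0.202). LINC01473 (NR_110218) had 3.10 and 1.51 CPM in siUPF1 replicates 1 and 2, against 0.339 and 0.798 CPM in controls a and b (log2 fold change 1.94, SE 0.43, adjusted p = 8.07e-05). The groups did not overlap, but siUPF1 replicate 1 was well above replicate 2, and without replicate 1 the difference did not pass (1.36, adjusted p = 0.0641). LINC00963 (NR_038955), known from prostate and other cancers, had 3.50 and 4.28 CPM in siUPF1, against 1.36 and 0.898 CPM in siLuc (log2 fold change 1.80, SE 0.33, adjusted p = 1.36e-06), and it passed in every alternative that tested it. LINC01176 (NR_108081) had 2.30 and 2.23 CPM in siUPF1, against 0.566 and 1.10 CPM in siLuc (log2 fold change 1.40, SE 0.40, adjusted p = 0.00284). Without control a it did not pass (1.03, adjusted p = 0.179). LINC01006 (NR_103858), now RNF32-DT, the divergent transcript of RNF32, had 1.70 and 2.23 CPM in siUPF1 and 0.905 and 0.599 CPM in siLuc (log2 fold change 1.40, SE 0.42, adjusted p = 0.00549), and lost its call without control b (1.11, adjusted p = 0.173) or siUPF1 replicate 2 (1.18, adjusted p = 0.0993). LINC01057 (NR_104131), now SLC44A3-AS1, had 3.50 and 3.65 CPM in siUPF1 and 1.47 and 1.995 CPM in siLuc (log2 fold change 1.03, SE 0.31, adjusted p = 0.00531), which did not pass without control a (0.84, adjusted p = 0.166).

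These transcripts have short reading frames near their 5′ ends, followed by exon junctions. The first frame that opens with AUG and closes with an in-frame stop is printed here for 5 of the largest rises, from the GENCODE release 29 transcript linked to the RefSeq identifier, with the start and stop codons in capitals.
LINC01473: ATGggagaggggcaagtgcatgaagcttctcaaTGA
LINC00963: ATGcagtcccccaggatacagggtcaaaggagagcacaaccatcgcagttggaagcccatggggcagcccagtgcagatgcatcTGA
LINC01176: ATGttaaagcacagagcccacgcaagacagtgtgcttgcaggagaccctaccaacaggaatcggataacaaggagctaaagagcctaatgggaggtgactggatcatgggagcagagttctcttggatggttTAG
LINC01006: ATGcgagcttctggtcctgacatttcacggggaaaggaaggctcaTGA
LINC01057: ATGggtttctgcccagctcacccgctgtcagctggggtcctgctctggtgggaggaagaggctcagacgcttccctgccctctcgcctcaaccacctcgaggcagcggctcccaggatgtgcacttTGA
The frame of LINC01473 (ENST00000419719.1, GRCh38 chr2:186033531-186083223, minus strand) runs for 36 nt from base 36 of a 587-nt transcript of 5 exons, and 3 junctions lie at least 50 nt after its stop. That of LINC00963 (ENST00000423918.5, GRCh38 chr9:129489107-129513668, plus strand) runs for 87 nt, again with 3 such junctions in 5 exons. The frame of LINC01176 (ENST00000628121.1, GRCh38 chr7:30390885-30404055, plus strand) has 135 nt, and its last junction is only 57 nt after the stop. That of LINC01006 (ENST00000425712.1, GRCh38 chr7:156472196-156603195, minus strand) has 48 nt, with its single junction 86 nt after the stop. LINC01057 (ENST00000452922.5, GRCh38 chr1:94657533-94820281, minus strand) has a frame of 129 nt followed by 4 junctions. LINC01336 stands apart from them, since its first frame (ENST00000503568.1) has 9 nt and its only junction lies 14 nt before the frame's end. Junctions at least 50 nt after the stop of the first frame are common, present in 90 of the 127 tested members with a linked transcript. Whether any of these frames is translated was not measured.

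The better expressed rises had narrower errors. LINC00941 (NR_040245), a transcript studied for its part in cell migration, had 28.7 and 24.6 CPM in siUPF1, against 11.9 and 13.6 CPM in siLuc (log2 fold change 1.06, SE 0.14, adjusted p = 1.22e-12). LINC00174 (NR_026873) had 29.5 and 40.8 CPM in siUPF1, against 16.4 and 17.9 CPM in siLuc (log2 fold change 1.04, SE 0.12, adjusted p = 1.02e-15). Both siUPF1 libraries of LINC00174 were well above the controls, though they differed from each other more than the controls did. LINC00491, with 4 RefSeq transcripts, had 16.2 and 19.0 CPM in siUPF1 and 7.81 and 9.98 CPM in siLuc (log2 fold change 0.98, SE 0.16, adjusted p = 4.87e-08). LINC00472 had 9.20 and 10.3 CPM in siUPF1 and 5.54 and 4.89 CPM in siLuc (log2 fold change 0.91, SE 0.20, adjusted p = 9.52e-05). These 4 members passed in every alternative tested.

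LINC00857 and LINC00673 complete the 12 largest rises. DESeq2 called neither (adjusted p = 0.255 and 0.155). With the coverage trend removed, LINC00857 did not pass in edgeR (adjusted p = 0.0656), while LINC00673 did (0.0214). LINC00857 had 4.202 and 3.12 CPM in siUPF1 and 1.81 and 1.995 CPM in siLuc (log2 fold change 0.93, SE 0.30, adjusted p = 0.0118). It lost its call without control a (0.86, adjusted p = 0.149), control b (0.99, adjusted p = 0.0917) or siUPF1 replicate 1 (0.70, adjusted p = 0.136). LINC00673, studied in pancreatic and lung cancer, had 4.802 and 6.06 CPM in siUPF1 and 2.94 and 2.89 CPM in siLuc (log2 fold change 0.90, SE 0.26, adjusted p = 0.00305). It did not pass without control a (0.91, adjusted p = 0.0523), control b (0.88, adjusted p = 0.0677) or siUPF1 replicate 2 (0.72, adjusted p = 0.0692).

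**Figure D2:**
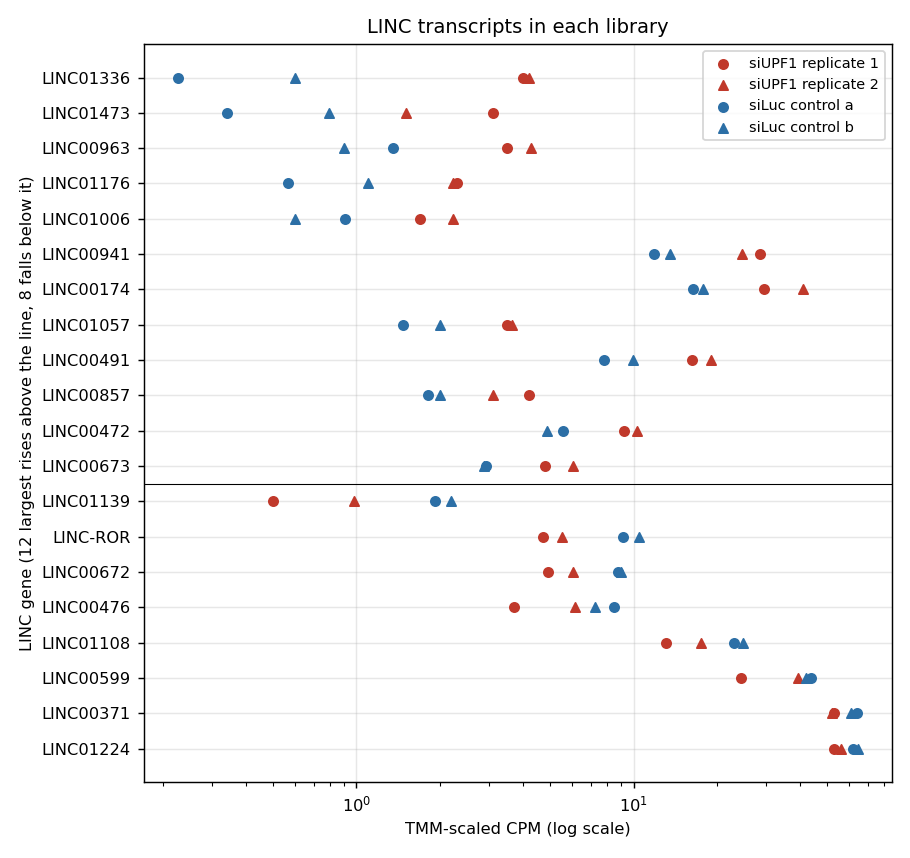
TMM-scaled CPM on a log axis for the 12 largest LINC rises (above the line) and the 8 falls (below it) in each library, red for siUPF1 and blue for siLuc, circles for siUPF1 replicate 1 and control a and triangles for siUPF1 replicate 2 and control b. Red and blue do not overlap in any row because the rule that chose the rows required it. For LINC00599, siUPF1 replicate 1 at 24.4 CPM lies apart from replicate 2 at 39.1 CPM.

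Falls were fewer. LINC01139 (NR_015407) was the single member at least 2-fold lower, with 0.5002 and 0.980 CPM in siUPF1, against 1.92 and 2.19 CPM in siLuc (log2 fold change -1.44, SE 0.41, adjusted p = 0.00310). It rests on 5 and 11 reads in siUPF1 against 17 and 22 in siLuc, and did not pass without control b (-1.35, adjusted p = 0.0773) or siUPF1 replicate 1 (-1.07, adjusted p = 0.0851). LINC-ROR (NR_048536), the regulator of reprogramming known from pluripotent stem cells, had 4.70 and 5.52 CPM in siUPF1, against 9.16 and 10.5 CPM in siLuc (log2 fold change -0.94, SE 0.20, adjusted p = 5.03e-05). LINC01108, also known from human embryonic stem cells, had 13.1 and 17.5 CPM in siUPF1, against 23.0 and 24.9 CPM in siLuc (log2 fold change -0.64, SE 0.14, adjusted p = 3.15e-05). These were the 2 falls that passed in every alternative tested.

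The first reading frame of LINC01108 is shown as an example with no junction after it, again with start and stop codons in capitals.
LINC01108: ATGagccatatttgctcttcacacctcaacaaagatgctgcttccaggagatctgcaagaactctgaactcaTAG
LINC01108 (ENST00000427276.1, GRCh38 chr6:14280127-14285145, minus strand) has 2 exons, and its junction lies 25 nt before the end of the 75-nt frame, so no junction follows the stop. Most falls were not like this. Of the 8 lower members, 6 had a junction at least 50 nt after the first frame, as the rises printed above do. So do 90 of the 127 tested members with a linked transcript. LINC-ROR, the other fall that passed in every alternative, has 4 exons and 3 such junctions.

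The other falls each lost the call when 1 or more libraries were left out, and DESeq2 called none of them (adjusted p from 0.135 to 0.464). LINC00672, listed today as the coding gene LASP1NB, had 4.90 and 6.06 CPM in siUPF1 and 8.82 and 8.98 CPM in siLuc (log2 fold change -0.69, SE 0.21, adjusted p = 0.00480), but did not pass without control a (log2 fold change -0.71, adjusted p = 0.0529) or control b (-0.69, adjusted p = 0.0667), its value staying nearly as it was. LINC00476 lies opposite ERCC6L2 and had 3.70 and 6.15 CPM in siUPF1 and 8.49 and 7.28 CPM in siLuc (log2 fold change -0.66, SE 0.21, adjusted p = 0.0117). Without siUPF1 replicate 1 its log2 fold change was -0.35 (adjusted p = 0.244), and it did not pass without control a either (-0.55, adjusted p = 0.207). LINC00599, the host gene of the neuronal microRNA miR-124 (MIR124-1HG), had 244 and 439 reads in siUPF1 and 385 and 422 in siLuc (log2 fold change -0.42, SE 0.10, adjusted p = 0.000260). Without siUPF1 replicate 1 this was -0.13 (adjusted p = 0.333). LINC00371, now listed as the coding gene C13orf42, and LINC01224 differed least, with log2 fold changes of -0.25 (SE 0.08, adjusted p = 0.0134) and -0.22 (SE 0.08, adjusted p = 0.0362). LINC00371 had 52.8 and 52.1 CPM in siUPF1 and 64.3 and 60.9 CPM in siLuc, and lost its call without control a (log2 fold change -0.22, adjusted p = 0.252) or control b (-0.30, adjusted p = 0.0658). LINC01224 had 53.1 and 56.1 CPM in siUPF1 and 62.2 and 64.8 CPM in siLuc, and lost its call without control a (log2 fold change -0.25, adjusted p = 0.156), control b (-0.20, adjusted p = 0.284) or siUPF1 replicate 1 (-0.18, adjusted p = 0.102).

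Rises were most frequent among members with 5 or more exons, but their share did not climb steadily with exon number. A GENCODE transcript was linked for 127 of the 156 tested members. None of 16 single-exon members was called in edgeR, with 1 higher and 1 lower at an unadjusted p under 0.05 and none called by DESeq2. Of 22 members with 2 exons, 7 were higher (31.8%) and 3 lower, and of 51 with 3 or 4 exons, 7 were higher (13.7%) and 4 lower. Over all genes, 16.8% were called higher and 9.14% lower. Of 38 members with 5 or more exons, 17 were higher (44.7%) and 1 was lower, with a median log2 fold change of 0.41. With the coverage trend removed, 12 of these 38 were higher, beside 2166 of all 15557 genes, and the members' median was 0.30. Level was not the same across these groups, since the median was 7.21 CPM for members with 5 or more exons and 3.47 CPM for those with 1, and its part in the counts was not tested.

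The calls also differed with where the junctions lie relative to the first reading frame. In 90 members at least 1 junction lay 50 nt or more after the stop of the first frame. Of these, 30 were called higher (33.3%, beside 16.8% of all genes) and 6 lower (6.67%, beside 9.14%), with a median log2 fold change of 0.19. In the remaining 37 no junction lay there. Of these, 1 was called higher (2.70%) and 2 lower (5.41%), with a median of -0.07. The single higher member of this second set was LINC01336, and the lower ones were LINC01108 and LINC00476. Restricting the second set to its 21 spliced members left 1 higher and 2 lower. Removing the coverage trend gave 24 higher and 8 lower of 90, and 1 higher and 5 lower of 37. In that fit, 2166 of all 15557 genes were higher and 2063 lower. Median reads per base were 0.032 in each set, while the median level was 6.05 CPM with a junction and 3.62 CPM without.

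**Figure D3:**
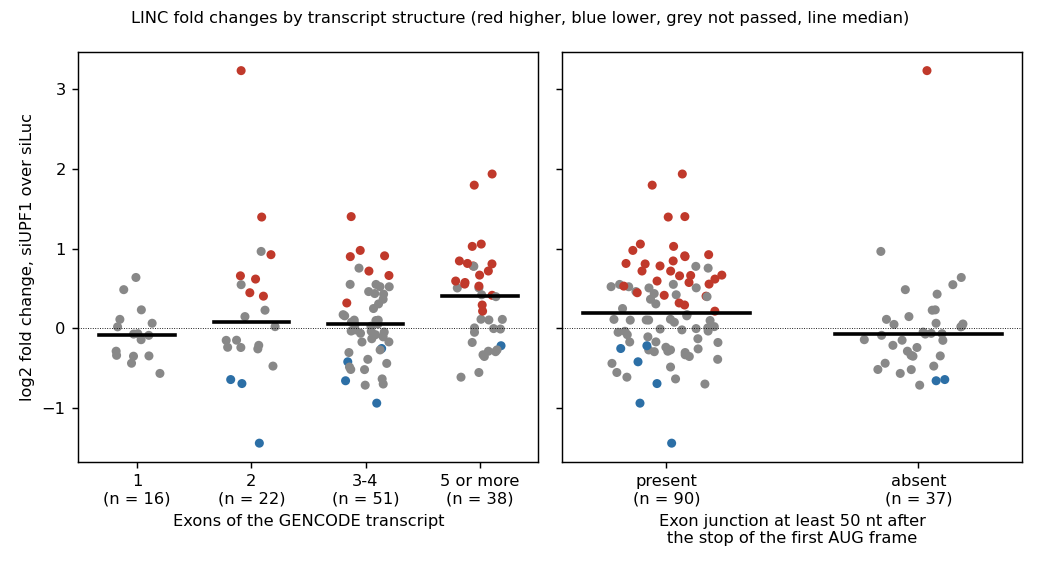
Log2 fold change, siUPF1 over siLuc, of the 127 LINC genes with a GENCODE transcript, by number of exons (left) and by whether an exon junction lies at least 50 nt after the stop of the first AUG frame (right); red points were called higher, blue lower, grey did not pass, and bars are medians. Single-exon members include no called gene, and the median is 0.41 at 5 or more exons.

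With the longest frame the shares lay closer together. Taking the longest frame instead of the first, 12 of 36 members with a junction after it were higher (33.3%), against 19 of 91 without one (20.9%). Where the linked transcript was within 0.8 to 1.25 times the length behind the deposited RPKM, a comparison chosen after the data were seen, 23 of 66 members with a junction after the first frame were higher and 1 of 24 without. Lengths did differ for some members named above: the transcript linked to LINC00941 is 16489 nt long, against about 1889 nt in the table.

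The same split was present in other noncoding genes. Of antisense genes, 34 of 214 with a junction after the first frame were called higher (15.9%), against 5 of 100 without. Of the other noncoding genes, 141 of 492 with a junction were higher (28.7%), against 20 of 291 without (6.87%). It is thus not particular to LINC genes. No test was run on these shares, which are descriptions of genes that share the same libraries.

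**Figure D4:**
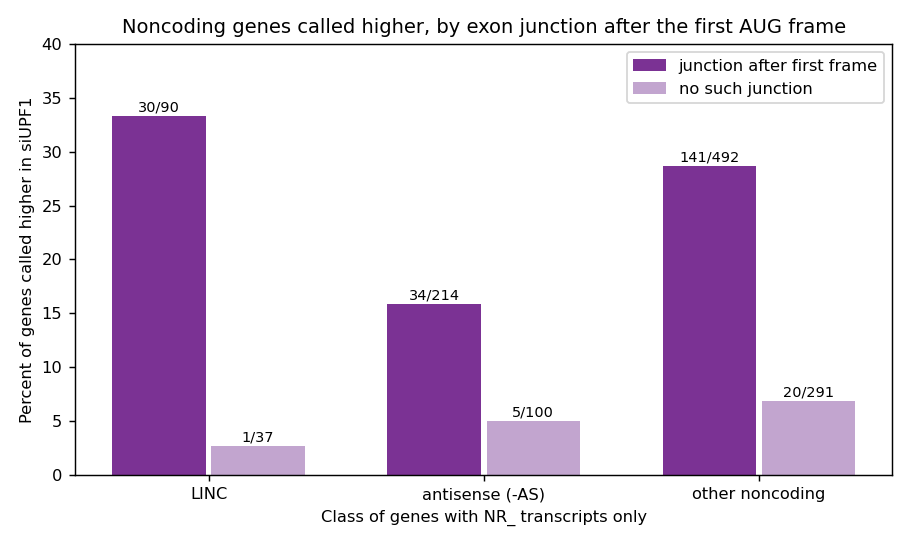
Percent of tested genes called higher in siUPF1, with the number called over the number tested above each bar, for genes with (dark) and without (light) an exon junction at least 50 nt after the first AUG frame. The dark bar is taller in LINC genes (30 of 90 against 1 of 37), antisense genes and other noncoding genes.

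Among better known members that rose are several with established roles. LINC01578 is CHASERR, which lies beside the chromatin remodeller gene CHD2 and is known from mouse to repress it. It had 68.2 and 62.2 CPM in siUPF1, against 45.7 and 44.5 CPM in siLuc (log2 fold change 0.53, SE 0.09, adjusted p = 1.28e-08). CHD2 was also higher, with 292 and 288 CPM in siUPF1 and 240 and 246 CPM in siLuc (0.26, SE 0.07, adjusted p = 0.00239). LINC00888, now the snoRNA host gene SNHG33, had 42.5 and 40.4 CPM in siUPF1 and 25.8 and 24.5 CPM in siLuc (log2 fold change 0.72, SE 0.11, adjusted p = 5.77e-10). LINC00152, now CYTOR, had 27.6 and 24.8 CPM in siUPF1 and 16.7 and 16.4 CPM in siLuc (log2 fold change 0.66, SE 0.13, adjusted p = 8.28e-06), and shares 515 nt at 98.8% identity with MIR4435-2HG, so its reads may come from either gene. LINC00265 had 54.1 and 64.7 CPM in siUPF1 and 35.2 and 34.02 CPM in siLuc (log2 fold change 0.78, SE 0.09, adjusted p = 3.07e-16) and shares 768 nt at 96.1% identity with the pseudogene GTF2IP13. These 4 were named after their values were seen. Among the tested members, only the 127 with a linked GENCODE transcript were searched for shared stretches. In all, 28 of them share at least 300 nt at 95% identity or more with another gene's transcript. Of these, 6 were called higher in edgeR, beside 16.8% of all genes, and 4 in DESeq2. None of the 28 was called lower in edgeR, where 9.14% of all genes were. At an unadjusted p under 0.05, 1 was lower, and DESeq2 called none lower.

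On the list of LINC genes known from cancer and cell growth, 4 of 9 tested members were higher (16.8% of all genes were) and none lower (9.14% of all genes) in edgeR, where none was lower at an unadjusted p under 0.05 either; DESeq2 called 2 higher. The 4 were LINC00963, LINC00673, LINC00152 and LINC00665. LINC00665 had 69.8 and 70.1 CPM in siUPF1 and 62.1 and 58.5 CPM in siLuc (log2 fold change 0.22, SE 0.08, adjusted p = 0.0325), a call lost without control a (0.26, adjusted p = 0.135) or control b (0.16, adjusted p = 0.380). LINC00657 is NORAD, an abundant cytoplasmic RNA that binds Pumilio proteins. It was the highest LINC transcript in CPM, has a single exon, and had 196 and 188 CPM in siUPF1 and 205 and 203 CPM in siLuc (log2 fold change -0.09, SE 0.07, adjusted p = 0.385). LINC-PINT, a p53-induced transcript, had 0.51 (SE 0.21, adjusted p = 0.0626). The list's median log2 fold change was 0.22, against -0.01 over all genes.

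Of the LINC genes known from pluripotent or early endoderm cells, 5 were tested. LINC-ROR and LINC01108 were lower, where 9.14% of all genes were. None of the 5 was higher in edgeR at the adjusted threshold or at an unadjusted p under 0.05, nor in DESeq2, which also called 2 lower. LINC00678 had 50.5 and 46.1 CPM in siUPF1, against 57.4 and 53.7 CPM in siLuc (log2 fold change -0.20, SE 0.09, adjusted p = 0.0673), and passed without siUPF1 replicate 1 (adjusted p = 0.0156). LINC00458 had 13.1 and 10.8 CPM in siUPF1 and 12.8 and 14.0 CPM in siLuc, which overlap (log2 fold change -0.17, SE 0.16, adjusted p = 0.471). LINC00545 had 3.90 and 3.56 CPM in siUPF1 and 2.26 and 2.79 CPM in siLuc (log2 fold change 0.55, SE 0.28, adjusted p = 0.141). The median over the 5 was -0.20, or -0.24 with the coverage trend removed. The median over the 8 protein-coding stem cell markers was also -0.20, or -0.09 with the coverage trend removed. POU5F1 had -0.25 (SE 0.07), or -0.08 and no call with the trend removed (adjusted p = 0.193), and NANOG -0.21 (SE 0.07), or -0.16 (adjusted p = 0.0345). FOXA2, an endoderm transcription factor, had 6 and 6 reads in siUPF1 against 44 and 41 in siLuc (log2 fold change -2.97, SE 0.37), while CXCR4, the other endoderm marker tested, was higher (0.62, SE 0.22, adjusted p = 0.0199), a call lost with the trend removed (0.52, adjusted p = 0.111). The neural markers DCX and NCAM1 had -1.11 (SE 0.10) and -0.76 (SE 0.09), with DCX at 228 and 352 reads in siUPF1 and 491 and 624 in siLuc, so that siUPF1 replicate 1 was the lowest library, as it was for LINC00599. The other neural markers did not pass, with PAX6 at 0.15 (SE 0.22), OTX2 at 0.15 (SE 0.08) and SOX1 at -0.22 (SE 0.24). The part of cell state in the lower members was not tested, and in bulk RNA fewer cells of a type and less RNA per cell cannot be told apart.

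Where 25.9% of all genes were called, none of the 5 tested members on the list of loci later annotated with a small protein was. These were LINC00116 (MTLN, a mitochondrial microprotein), LINC00493 (SMIM26), LINC01420 (NBDY, a microprotein of the mRNA decapping complex), LINC00998 (SMIM30) and LINC00467. In edgeR none of them reached an unadjusted p under 0.05, and DESeq2 called none. Their log2 fold changes ran from -0.29 (SE 0.22) in LINC00467 to 0.11 (SE 0.15) in LINC00116, with a median of -0.13. LINC01420 had 35.8 and 33.3 CPM in siUPF1 and 36.8 and 33.3 CPM in siLuc. Among all tested members, 12 are filed as protein-coding in the RefSeq table used. Of these, LINC01336, LINC01125 (C2orf92) and LINC00959 (C10orf143) were called higher, and LINC00672 and LINC00371 lower. Over all genes, 16.8% were called higher and 9.14% lower.

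Per kilobase of transcript the highest LINC genes were LINC00678 (50.4 CPM per kb in siUPF1 and 57.9 in siLuc), LINC01420 (49.97 and 50.7), LINC00665 (53.2 and 45.8), LINC01405 (47.1 and 35.5), LINC00493 (36.6 and 40.6) and LINC00428 (35.6 and 40.1). Of these 6, LINC00665 and LINC01405 were called higher in edgeR, and DESeq2 called neither (adjusted p = 0.255 and 0.262). LINC01405 is a short transcript of about 358 nt with 17.7 and 16.04 CPM in siUPF1 and 12.7 and 12.8 CPM in siLuc (log2 fold change 0.40, SE 0.15, adjusted p = 0.0358). Its call was lost without control a (0.40, adjusted p = 0.221) or control b (0.40, adjusted p = 0.203), though its fold change hardly moved, and without siUPF1 replicate 1 (0.33, adjusted p = 0.111). LINC00493 and LINC00428 had log2 fold changes of -0.15 (SE 0.14) and -0.17 (SE 0.12) and did not pass.

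Several changed members have a neighbouring coding gene that changed too. The nearest coding gene with a row in the table was taken by RefSeq gene positions on GRCh38.p14, with no limit on distance. It was called higher for 13 of 38 higher members (34.2%), 3 of 8 lower members (37.5%) and 21 of 109 that did not pass (19.3%). Among all coding genes tested, 16.7% were called higher. The share was thus no larger for higher members than for lower ones. The nearest coding gene of LINC01176 was NOD1, a bacterial sensor gene on the opposite strand. NOD1 had 34.1 and 35.8 CPM in siUPF1, against 14.8 and 19.8 CPM in siLuc (log2 fold change 1.01, SE 0.12). LINC01473 neighbours FSIP2, a sperm tail gene, which had 14.7 and 21.2 CPM in siUPF1, against 11.4 and 7.38 CPM in siLuc (0.95, SE 0.16). RNF32, which LINC01006 overlaps on the other strand, had 14.5 and 15.1 CPM in siUPF1 and 9.73 and 9.08 CPM in siLuc (0.66, SE 0.17). LINC00630 overlaps RAB40AL on the same strand, and both were higher, by 0.72 (SE 0.15) and 1.04 (SE 0.22). For the 2 overlapping pairs, reads of one gene counted for the other cannot be told apart here.

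Other pairs differed in direction or size. LINC01139 was lower while its neighbour RYR2, the cardiac calcium release channel, had 120 and 124 CPM in siUPF1, against 61.9 and 68.4 CPM in siLuc (log2 fold change 0.90, SE 0.08). LINC00476 was lower while ERCC6L2, on the opposite strand, was higher (0.34, SE 0.07). LINC01000 and its neighbour FAM71F1 were both higher, with log2 fold changes of 0.31 (SE 0.07) and 1.99 (SE 0.16). LINC00371 and its neighbour FAM124A were both lower (-0.25, SE 0.08, and -0.49, SE 0.07). LINC01336 has FAM169A as its nearest other coding gene, which had -0.06. Pairs with both genes lower were thus seen once among the 8 lower members. The neighbours named here were chosen after their values were seen. They are the nearest coding genes with a row, at distances not given here, and need not be adjacent.

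**Figure D5:**
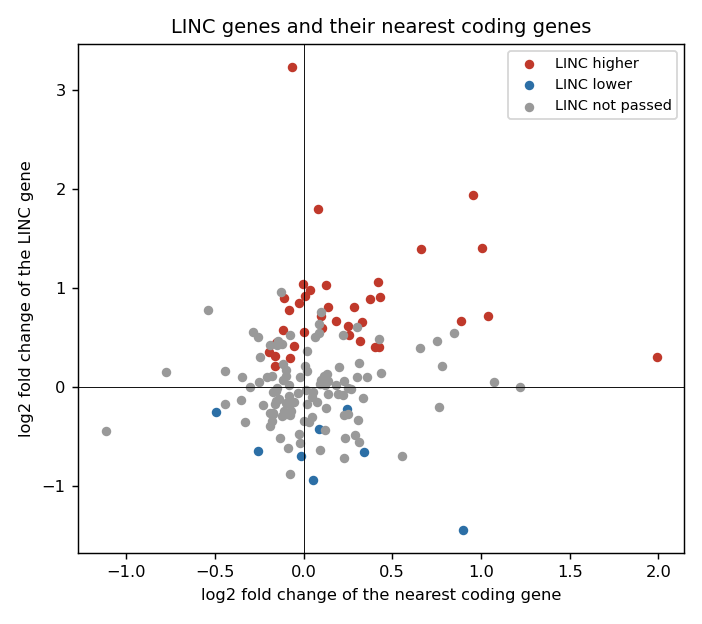
Log2 fold change, siUPF1 over siLuc, of the nearest coding gene (horizontal) and of the LINC gene (vertical) for the 155 members with a tested neighbour; red LINC genes were called higher, blue lower, grey did not pass. LINC01473 and LINC01176 lie at the upper right near 1 on the horizontal axis, LINC01336 at the top lies near 0, and LINC01139 is the lowest point.

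Calls were also counted by isoform number and length. Of 110 members with a single RefSeq transcript 28 were higher (25.5%), and of 46 with several transcripts 10 were higher (21.7%). By length, 7 of 35 members under 1000 nt were higher, 11 of 53 from 1000 to 2000 nt, 12 of 48 from 2000 to 4000 nt and 8 of 20 at 4000 nt or more, beside 16.8% of all genes. Of the 8 lower members, 1 was from 1000 to 2000 nt, 6 were from 2000 to 4000 nt and 1 was longer. The 6 were 12.5% of the 48 members of their class, beside 9.14% of all genes. The longest class was also the best covered, with a median of 33.9 CPM against 2.74 CPM in the shortest.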

How the data were processed

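The data are a single table covering all libraries. It holds unnormalized read counts per gene, as deposited, and RPKM values (reads scaled by length and library total), also deposited by the authors. The tools STAR and DESeq2 and the build hg19 are named, with no roles, per the submitters' processing notes; versions, strand and the treatment of multimapping reads are not given in the sources used here. Both control columns carry one name, so 2 control RPKM columns were left unused; siUPF1 RPKM served only to derive the length behind each gene.

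Counts were tested with edgeR 4.0.16 (quasi-likelihood, two-sided, R 4.3.3) after TMM scaling and filterByExpr, which kept 15557 genes and left out 385, with Benjamini-Hochberg adjustment over all of them at 0.05. Log2 fold changes are siUPF1 over siLuc, n = 2 libraries per group, and the biological coefficient of variation was 4.47%. The scripts were tested on simulated data. DESeq2 1.42.0, limma-voom (limma 3.58.1), other scalings, filters and thresholds, removal of a coverage trend by loess and leaving out each library were alternatives. Current names and neighbours came from RefSeq (GRCh38.p14), with 132 members matched by symbol, 31 by accession and 9 by older symbol. Neighbours and overlaps were taken from the RefSeq start and end of each gene. Exons and frames came from GENCODE release 29 (139 of 172 members). Shared stretches were found with blastn 2.17.0.

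Members and lists were chosen with earlier results of these data known. The members named by rule were the 12 largest rises and 8 largest falls past the threshold without overlap and with a mean of at least 1 CPM, the 6 highest per kilobase, and the tested members of the pluripotency and microprotein lists. Depth gives large counting errors below about 5 CPM.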

Additional observations from a re-analysis of the deposited data

How the results depend on the processing

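The count of 38 higher members became 22 with DESeq2 and 8 with a fold of at least 2 required; leaving out single libraries gave 24 to 38. The count of 8 lower members became 15 with the coverage trend removed, 2 with DESeq2 and 1 with a fold of at least 2; leaving out libraries gave 4 to 14, the 14 coming without siUPF1 replicate 2 and the 4 without control b. Of members with a junction after the first frame, 30 were higher, 15 with DESeq2, 6 with a fold of at least 2, and 17 to 29 with a library left out, the lowest without control b. Of members without one, 1 was higher, 0 with at least 5 CPM required in 2 libraries, 4 at an adjusted p of 0.1, and 1 to 2 with a library left out. The median log2 fold change of 0.10 became 0.00386 with the coverage trend removed, where that over all genes was -0.0268. Over all genes, the 2613 higher and 1422 lower calls became 1280 and 467 with DESeq2. With the coverage trend removed they became 2166 and 2063. The cause of these changes was not tested. UPF1 passed in each alternative, between -1.80 and -1.44. Leaving a library out leaves 1 sample in a group, assumed to vary like the rest. Of 38 higher calls 19, and of 8 lower calls 2, passed in each alternative that tested them. Over 31 named members, 362 values under alternatives held their direction and side of the threshold in 318 cases, lost the call in 43 and gained it in 1 (LINC00678). Leaving out members with shared stretches or a coding overlap, chosen after seeing the data, left 29 higher and 7 lower. Members without a linked transcript were not searched for shared stretches. No paired analysis was possible because both control columns carry the same replicate number.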
